A study of Mus musculus with 15 samples.

Results

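A Bcat1 knock-out T cell leukemia of the mouse, KO7, was set against a wild-type one, WT6, in the 3 RNA-seq libraries of each, 6 of the 15 libraries of the study, over every gene of the deposited count table (15948 tested genes of 39827 read). Both are T cell acute lymphoblastic leukemias (T-ALL) driven by ΔE-NOTCH1, a NOTCH1 that lacks most of its extracellular domain and signals without ligand. Per the labels, the leukemias were raised by transducing progenitors sorted from bone marrow as GFP+ Lineage- cKit+ Sca1+ and placing them in lethally irradiated C57BL/6J mice, and the progenitors of KO7 carried the genotype BCAT1 knock-out and those of WT6 the genotype BCAT1 WT. The label of both groups is mouse primary tumour cells of the spleen with PBS as the treatment, and each group name carries 1 leukemia number, 7 for KO7 and 6 for WT6. Age, sex and the kind of knock-out allele are not given in the labels. Levels of Y chromosome genes, given below, set KO7 apart from WT0 with PBS but not from WT6 or KO3. The other 9 libraries were used side by side: KO3, a second Bcat1 knock-out leukemia given PBS, WT0 given the BCAT1 inhibitor ERG-245 (3 intraperitoneal doses of 30 mg per kg at intervals of 8 h), and WT0 given PBS, 3 libraries each. The alignment names of the WT0 libraries labelled PBS contain DMSO, and the label was followed here. Because the knock-out arm and the wild-type arm of this comparison are 1 leukemia each, genotype and leukemia cannot be told apart, and the p-values measure the spread between libraries of a leukemia, which may be technical since the labels name no separate mice.

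BCAT1 is the cytosolic branched-chain aminotransferase. It passes the amino group of leucine, isoleucine or valine to 2-oxoglutarate, which yields glutamate and a branched-chain keto acid, while the mitochondrial BCAT2 runs the same reaction and the keto acids go on to the branched-chain keto acid dehydrogenase. The reaction is reversible, so it touches the pools of leucine, glutamate and 2-oxoglutarate, the last of which is a co-substrate of the TET enzymes that oxidise methylcytosine and of many histone demethylases. In T-ALL, activated NOTCH1 drives growth genes directly and through MYC.

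Total counts were 17645879 to 20066885 in the KO7 libraries and 21704083 to 28902573 in the WT6 libraries. Across genes, log levels correlated at r of 0.9981 to 0.9984 among KO7 libraries, 0.9985 to 0.9988 among WT6 libraries and 0.9638 to 0.9641 between KO7 and WT6 libraries, with genes not being independent replicates. T cell genes were present in both groups, with Cd3e, a chain of the T cell receptor complex, at 228 ± 6.11 CPM in KO7 and 247 ± 7.15 CPM in WT6 (SD, n = 3 each, as below; CPM is the count scaled to a common library total). Markers of erythroid cells took 6.49, 6.17 and 6.45% of all counts in KO7, against 1.39, 1.34 and 1.51% in WT6, and immunoglobulin genes took 0.763, 0.777 and 0.759% in KO7, against 2.53, 2.44 and 2.56% in WT6, so both spleens held RNA of other cells. The erythroid share averaged 1.32% in KO3, 5.36% in WT0 with ERG-245 and 4.59% in WT0 with PBS. In bulk RNA a smaller number of cells of a type and less RNA per cell cannot be told apart.

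Bcat1 (gene ID 12035, chr6:144993835-145076157, minus strand, GRCm38.p6) had 2.11, 2.67 and 1.48 CPM in the KO7 libraries, from 42, 47 and 26 counts, against 34.8, 35.3 and 35.6 CPM in the WT6 libraries. The 3 KO7 values lie far below the 3 WT6 values, and Bcat1 was lower in KO7 (log2 -4.07, SE 0.10, edgeR adjusted p = 8.9e-49). The counts cover all exons of the gene, so they do not show which exons the knock-out allele lacks. Over all 5 groups KO7 had the least, with 6.95 CPM in KO3, 13.3 CPM in WT0 with ERG-245 and 17.8 CPM in WT0 with PBS. Per kilobase of merged exon the cytosolic enzyme was at 0.230 ± 0.0656 CPM in KO7 and 3.88 ± 0.0458 CPM in WT6, and the mitochondrial enzyme Bcat2 at 17.2 ± 0.522 CPM in KO7 and 16.1 ± 0.146 CPM in WT6, so on the per-length scale Bcat2 was the more abundant of both transcripts in either leukemia.

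The comparison called 68.9% of the tested genes at an edgeR quasi-likelihood adjusted p under 0.05, with 5143 genes (32.2%) higher and 5849 genes (36.7%) lower in KO7. At least 2-fold changes were found for 1481 genes (9.29%) higher and 1303 genes (8.17%) lower. The median log2 fold change of all tested genes was -0.03 and the median absolute log2 fold change 0.33. Both wild-type leukemias differed from each other as widely, with 72.5% of genes called and 18.9% called at 2-fold or more in WT6 against WT0 with PBS. For KO7 against WT0 with PBS these shares were 69.4% and 16.2%, and for KO7 against KO3 70.7% and 19.6%, all from comparisons that share libraries. The 3 KO7 libraries did not overlap the 3 WT6 libraries for 70% of genes. A gene is described as standing apart in KO7 where KO7 was called in the same direction against each of the other 4 groups with no overlap of its 3 libraries with the other 12, which held for 1534 genes higher (9.62%) and 1599 genes lower (10%). The shares of all tested genes, 32.2% higher and 36.7% lower, are the background for every gene list below.

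**Figure D1:**
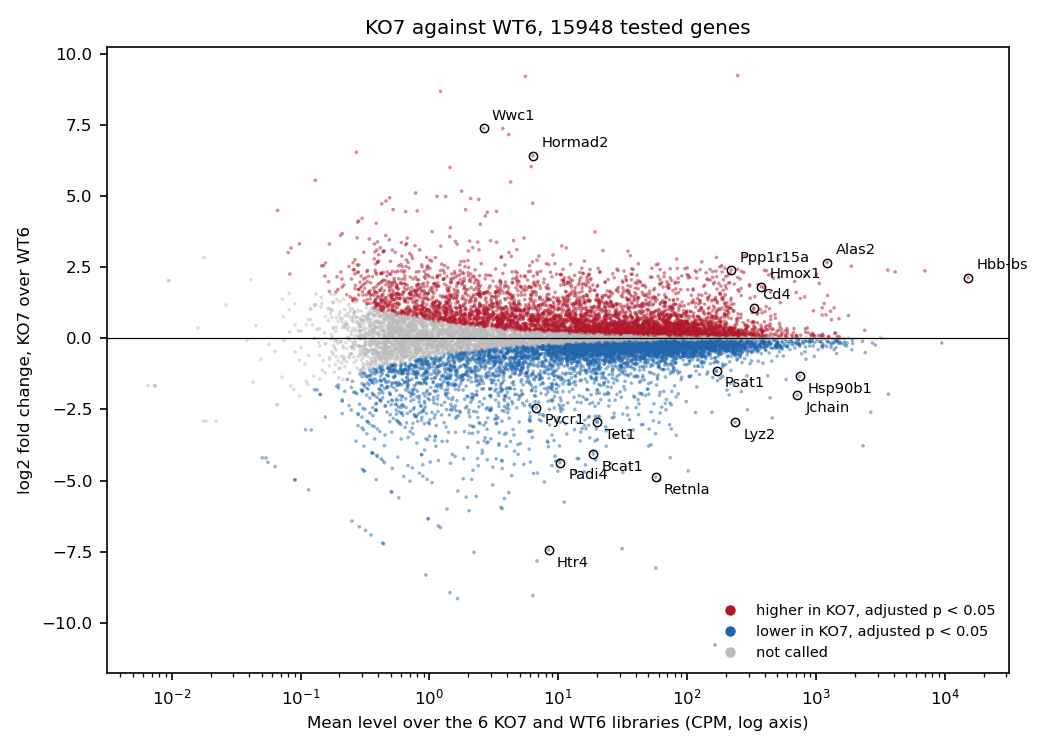
Each point is one of 15948 tested genes, with the mean level over the 6 KO7 and WT6 libraries on a log axis in CPM (x) and the log2 fold change of KO7 over WT6 (y). Red and blue points passed an edgeR adjusted p under 0.05, and circled genes are described in the text, with Bcat1 at -4.07 and Htr4 at -7.44 among the lower ones.

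Around Bcat1 on chromosome 6, 22 other tested genes start within 2 Mb, of which 9 were higher, 6 were lower and 7 were not called, with a median log2 of 0.14. The nearest of them, Lrmp, a lymphoid membrane protein of the endoplasmic reticulum, starts 35.6 kb from Bcat1 and had 242, 229 and 236 CPM in the KO7 libraries and 277, 279 and 276 CPM in the WT6 libraries (log2 -0.24). Among the 17 protein-coding neighbours 1 changed 2-fold or more, the circadian repressor Bhlhe41 with 1.41, 0.738 and 1.19 CPM in the KO7 libraries and 2.59, 2.99 and 2.57 CPM in the WT6 libraries (log2 -1.27). The gene model Gm32675 had 1, 0 and 0 counts in the KO7 libraries and 32, 29 and 18 counts in the WT6 libraries, at levels where KO7 rests on a single read or none per library.

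The first steps of branched-chain amino acid breakdown otherwise differed little. Of 8 genes 2 were higher, 3 were lower and 3 were not called (median log2 -0.04). Bcat2 had 62.2, 65.2 and 61.6 CPM in the KO7 libraries and 58.8, 59.9 and 59.2 CPM in the WT6 libraries, with no overlap of the groups but a small difference (log2 0.09, SE 0.04, edgeR adjusted p = 0.0439) that was not called under 8 of the 13 alternatives run. Among these it was not called without KO7 replicate 1 or 2 or without any 1 of the WT6 libraries (log2 0.06 to 0.10). Bckdha, the E1 alpha subunit of the keto acid dehydrogenase, rose (log2 0.46). The kinase Bckdk, which switches that complex off, fell to 60.4 CPM in KO7, against 78.0 CPM in WT6 (log2 -0.37), and the phosphatase Ppm1k, which switches it on, fell too (log2 -0.45). Of the 22 enzymes of the distal steps 9 were higher and 5 lower with a median log2 of 0.02, and none reached 2-fold. Aldh6a1, the methylmalonate semialdehyde dehydrogenase of valine breakdown, rose by log2 0.60 and the leucine carboxylase subunit Mccc2 fell (-0.36), both standing apart in KO7.

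Carriers of amino acids rose in 11 of 18 members and fell in 5 (median log2 0.23). Slc43a2 (LAT4), a facilitated carrier of leucine and other large neutral amino acids, had 179.9, 172 and 171 CPM in the KO7 libraries and 92.6, 96.1 and 91.9 CPM in the WT6 libraries (log2 0.90, SE 0.03, edgeR adjusted p = 3.76e-40). All 3 KO7 values stood above the 12 of the other groups, whose means were 60.2 CPM in KO3, 62.9 CPM in WT0 with ERG-245 and 61.1 CPM in WT0 with PBS. Its relative Slc43a1 (LAT3) rose more against WT6, at 243 ± 4.42 CPM in KO7 and 58.8 ± 3.06 CPM in WT6 (log2 2.05), but WT0 with PBS held 241 CPM. The glycine carrier Slc6a9 rose to 142 CPM in KO7, against 25.8 CPM in WT6 (log2 2.46), and the lysosomal arginine carrier and sensor Slc38a9 by log2 0.84. The exchanger of leucine and glutamine, Slc7a5 with Slc3a2, moved little (log2 0.23 and 0.15). Lower in KO7 were the cystine-glutamate exchanger Slc7a11 (log2 -1.31), the amino acid carrier Slc36a4 (-1.55) and the glutamine carrier Slc38a1 (-0.56). Slc43a1 and Slc6a9 are also genes of red cell precursors, whose marker share was higher in KO7 than in WT6 as given above, and their part in the result was not tested. Slc6a9 had 26.2 CPM in KO3 and 147 CPM in WT0 with PBS, and Slc38a9 had 45.5 CPM in KO3 and 84.2 CPM in WT0 with PBS. Slc38a9 was thus also high where the erythroid share was high, and the part of that share was not tested.

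Genes that pass the leucine signal to the growth kinase mTORC1 were higher in 11 of 33 members and lower in 12 (median log2 0.02). These shares, 33.3% and 36.4%, are near those of all tested genes. Deptor, an inhibitor within the mTOR complexes, had 39.6, 37.4 and 37.7 CPM in the KO7 libraries and 124, 124 and 117 CPM in the WT6 libraries and no overlap (log2 -1.67, SE 0.04, edgeR adjusted p = 6.8e-51). It stood apart in KO7, with 74.6 CPM in KO3, 46.1 CPM in WT0 with ERG-245 and 86.5 CPM in WT0 with PBS. The GTPase Rragb, one of the Rag proteins that bring mTORC1 to the lysosome, fell (log2 -1.32), while Rraga and Rragc rose slightly (0.17 and 0.15). Among the sestrins, stress proteins that hold mTORC1 back, the leucine sensor Sesn2 rose by log2 0.33 and Sesn1 by 0.57, whereas Sesn3 fell (-0.87). The folliculin partner Fnip2 rose to 49.2 CPM in KO7, against 15.4 CPM in WT6 (log2 1.68), with 13.9 CPM in KO3, 49.6 CPM in WT0 with ERG-245 and 49.4 CPM in WT0 with PBS. These levels were high in the groups with the high erythroid shares, whose part in the result was not tested. Mtor (log2 -0.10) and its partner Rptor (-0.10) were slightly lower, and neither call held without KO7 replicate 3 (log2 -0.07 and -0.09). Mtor was also not called without WT6 replicate 2 (log2 -0.06), nor Rptor without KO7 replicate 1 (log2 -0.09).

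Enzymes that make serine and proline were lower at several steps, within a list in which 10 of 23 genes were higher and 9 lower (median log2 0.05). Psat1, the aminotransferase that uses glutamate to make phosphoserine and releases 2-oxoglutarate, had 105, 106 and 105 CPM in the KO7 libraries and 231, 233 and 233 CPM in the WT6 libraries (log2 -1.14, SE 0.03, edgeR adjusted p = 9.31e-49). No KO7 library reached any library of the other groups, whose means were 199 CPM in KO3, 143 CPM in WT0 with ERG-245 and 137 CPM in WT0 with PBS. The step before it, Phgdh, fell to 184 CPM in KO7, against 305 CPM in WT6 (log2 -0.73), and the step after it, Psph, fell as well (log2 -0.45). WT0 with PBS was level with KO7 for Phgdh (185 CPM) and lower for Psph (22.1 CPM, against 29.7 CPM in KO7). KO3 was higher than KO7 for both genes (256 CPM for Phgdh and 31.0 CPM for Psph). Shmt2, which splits serine into glycine and a one-carbon unit in mitochondria, fell (log2 -0.61), and Aldh1l2, a folate dehydrogenase of mitochondria, had 2, 1 and 0 counts in the KO7 libraries and 45, 59 and 52 counts in the WT6 libraries. Aldh1l2 was also low in KO3 (0.250 CPM) and WT0 with PBS (0.0781 CPM), against 2.04 CPM in WT6. For proline, Pycr1 had 1.96, 1.76 and 2.56 CPM in the KO7 libraries and 10.7, 12.3 and 11.2 CPM in the WT6 libraries (log2 -2.44, SE 0.14, edgeR adjusted p = 3.39e-26), and WT6 stood above every other group, with 2.84 CPM in KO3, 3.32 CPM in WT0 with ERG-245 and 1.49 CPM in WT0 with PBS. Glutamine synthetase Glul, which makes glutamine from glutamate, rose to 281 CPM in KO7, against 135 CPM in WT6 (log2 1.06), and stood apart in KO7. Asparagine synthetase Asns rose by log2 0.50.

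Purine, pyrimidine and folate enzymes fell in 14 of 23 members and rose in 6 (median log2 -0.16), with 10 lower members that stood apart. These changes were shallow apart from the genes named above, as with the purine enzymes Ppat (log2 -0.34) and Atic (-0.28) and the pyrimidine enzymes Ctps (-0.35) and Cad (-0.26).

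All 3 TET enzymes, which use 2-oxoglutarate to oxidise methylcytosine, were lower in KO7 than in each of the other groups. Tet1 (chr10:62804570-62887469) had 4.22, 4.601 and 4.94 CPM in the KO7 libraries and 36.7, 35.5 and 33.9 CPM in the WT6 libraries (log2 -2.95, SE 0.09, edgeR adjusted p = 2.49e-44). Its KO7 libraries lay under every other library, with means of 16.8 CPM in KO3, 14.6 CPM in WT0 with ERG-245 and 13.7 CPM in WT0 with PBS. Tet3 had 67.7, 67.5 and 67.00 CPM in the KO7 libraries and 98.3, 100.2 and 93.5 CPM in the WT6 libraries (log2 -0.53), and Tet2 9.10, 12.2 and 9.55 CPM in the KO7 libraries and 17.9, 18.3 and 17.7 CPM in the WT6 libraries (log2 -0.81). Per kilobase of exon Tet3 was the most abundant of the 3 in KO7 (5.24 ± 0.0288 CPM, against 1.07 ± 0.171 for Tet2 and 0.250 ± 0.0196 for Tet1). Of all 27 listed dioxygenases 6 were higher and 14 lower (median log2 -0.07), including the histone demethylase Kdm5a (log2 -0.38), the RNA demethylase Fto (-0.23) and, among those higher, Kdm7a (0.46) and the collagen prolyl hydroxylase subunit P4ha2 (0.48). P4ha2 was not called without KO7 replicate 2 (log2 0.39), WT6 replicate 1 (0.43) or WT6 replicate 2 (0.42).

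Enzymes that set DNA methylation and Polycomb marks fell in 11 of 22 members and rose in 5 (median log2 -0.08). The de novo DNA methyltransferase Dnmt3a had 108, 108 and 103 CPM in the KO7 libraries and 197, 200.2 and 194 CPM in the WT6 libraries (log2 -0.89, SE 0.03, edgeR adjusted p = 2.78e-41), a difference with no overlap. Its relative Dnmt3b also fell (log2 -0.37), while the maintenance enzyme Dnmt1 was only slightly lower (-0.08). The Polycomb ring protein Bmi1 fell (log2 -0.56), and the methyltransferase Ezh2 was nearly level between the leukemias (-0.08). Of 28 histone acetylation genes 10 were higher and 9 lower, shares near those of all tested genes. The deacetylases Hdac9 (log2 -0.90) and Hdac4 (-0.69) were the lowest.

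**Figure D2:**
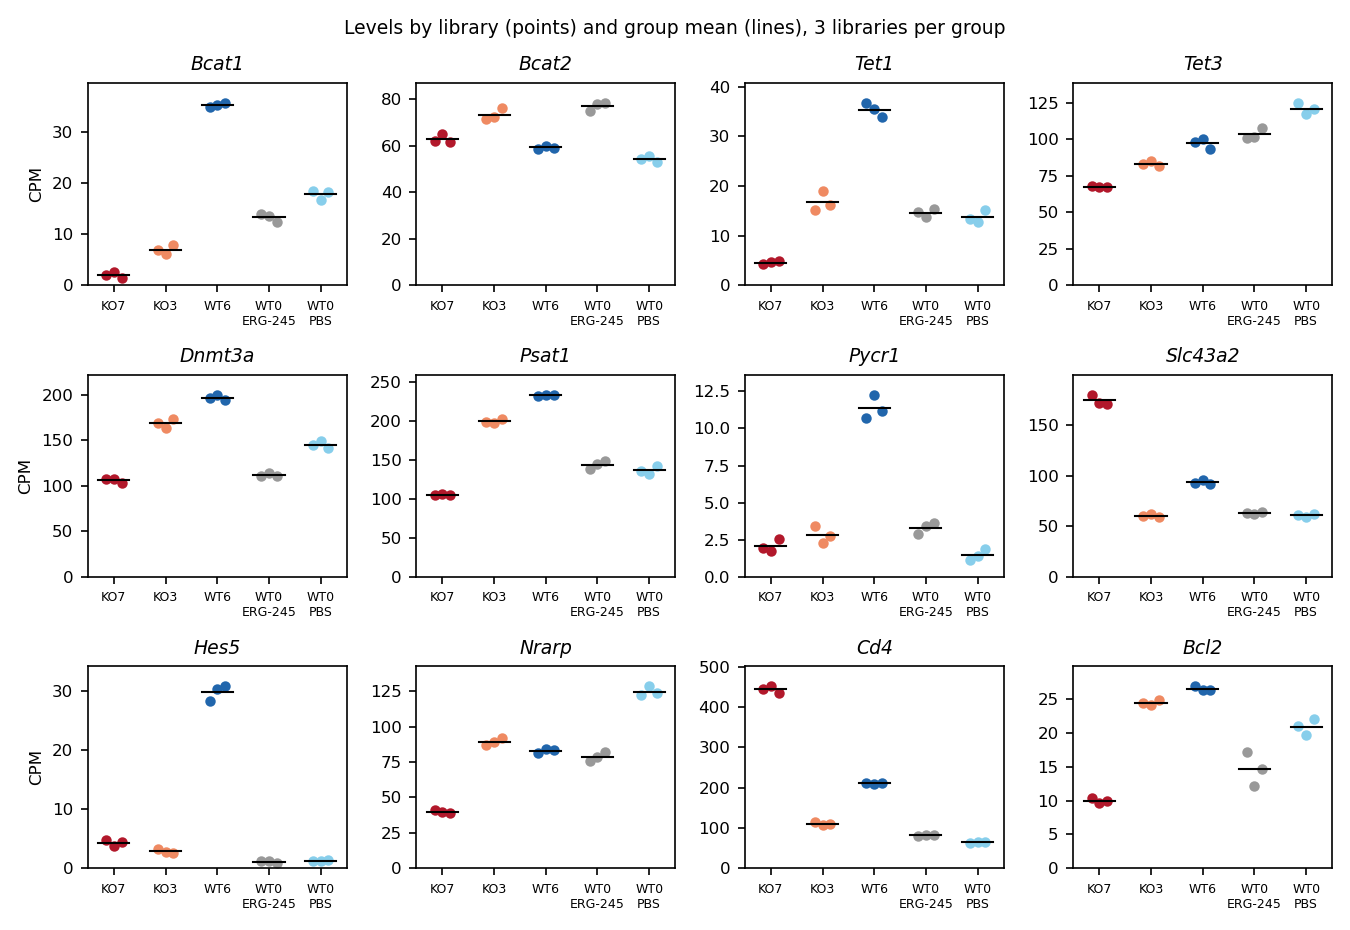
Levels in CPM (y) of 12 genes in each library (points) and as group means (black lines) for KO7, KO3, WT6, WT0 with ERG-245 and WT0 with PBS, 3 libraries each; every axis starts at 0. Bcat1, Tet1, Tet3, Dnmt3a, Psat1, Nrarp and Bcl2 are lowest in KO7, Slc43a2 and Cd4 are highest in KO7, and Pycr1 and Hes5 stand out in WT6.

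NOTCH1 target genes of T cells fell in 15 of 21 tested members and rose in 4 (median log2 -0.45). The list includes Cd3e, and all 17 genes of the T cell receptor complex and its signalling fell as well (median log2 -0.24). Hes5, a repressor induced by NOTCH, had 4.83, 3.75 and 4.43 CPM in the KO7 libraries and 28.4, 30.4 and 30.8 CPM in the WT6 libraries (log2 -2.77, SE 0.09, edgeR adjusted p = 3.57e-41). WT6 was the group with the high value here, since the means were 2.93 CPM in KO3, 1.11 CPM in WT0 with ERG-245 and 1.30 CPM in WT0 with PBS. Nrarp, a feedback inhibitor of the NOTCH complex, had 41.1, 39.4 and 39.2 CPM in the KO7 libraries and 81.5, 84.0 and 83.8 CPM in the WT6 libraries (log2 -1.06, SE 0.04, edgeR adjusted p = 4e-37) and stood apart in KO7. The chemokine receptor Ccr7 (log2 -1.16), the kinase-like Trib2 (-0.85), the ubiquitin ligase Dtx1 (-0.64) and the interleukin receptor Il7r (-0.36) fell. The pre-T cell receptor alpha chain Ptcra (log2 0.57), the repressor Heyl (0.36) and cyclin Ccnd3 (0.30) rose, and the direct targets Hes1 (log2 -0.02) and Myc (-0.05) were not called, though Myc was called lower without KO7 replicate 3 or WT6 replicate 3 (log2 -0.07 in each case). The receptor genes themselves were slightly higher, with Notch1 at 1178 ± 18.3 CPM in KO7 and 1060.4 ± 25.1 CPM in WT6 (log2 0.15) and Notch3 at log2 0.15, and whether reads of the ΔE-NOTCH1 transgene are counted under Notch1 was not tested. Of 26 receptors, ligands and processing genes 10 were higher and 10 lower, with the glycosyltransferases Mfng (log2 -1.0) and Lfng (0.69) moving in opposite directions and Rbpj, the DNA-binding partner of NOTCH, lower (-0.48).

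Genes that mark stages of thymocytes also separated the leukemias, with 11 of 22 higher and 10 lower. The coreceptor Cd4 had 446, 452 and 435 CPM in the KO7 libraries and 211, 209.7 and 212 CPM in the WT6 libraries (log2 1.07, SE 0.02, edgeR adjusted p = 3.57e-52). KO7 held the highest Cd4 of all groups, with 111 CPM in KO3, 81.7 CPM in WT0 with ERG-245 and 64.7 CPM in WT0 with PBS. The other coreceptor was split by chain, with Cd8a slightly lower (log2 -0.10) and Cd8b1 higher (0.31). The terminal transferase Dntt (log2 0.56) and the recombinase gene Rag2 (0.54) rose, and Rag1 was not called (0.02). Several regulators of the T lineage fell, with Tox at log2 -0.92, Gata3 at -0.71, Tcf7 at -0.53 and Lef1 at -0.45. All 17 genes of the T cell receptor complex and its signalling were lower in KO7 (median log2 -0.24), from Themis (-0.09, and -0.07 and not called without WT6 replicate 2) to the adhesion receptor Cd2 (-0.92). Their summed share of counts was 0.547, 0.547 and 0.546% in KO7 and 0.694, 0.694 and 0.693% in WT6. Against WT0 with PBS the same list had a median log2 of 0.17, in a group with an erythroid share of 4.59%. Whether its lower share against WT6 bears on the falls of NOTCH1 targets, nucleotide and folate enzymes and ribosome biogenesis genes was not tested.

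Rearranged receptor segments set the leukemias apart. Of the counts over 35 V segments of the beta chain (TRBV), Trbv5 took 79.1 ± 0.855% in KO7 and 0.136 ± 0.0197% in WT6, and Trbv15 took 15.7 ± 0.793% in KO7 and 3.57 ± 0.172% in WT6. Trbv19 took 0.0296% in KO7 and 54.4 ± 0.520% in WT6, with Trbv2 (0.0686% in KO7 and 18.9 ± 0.651% in WT6) and Trbv13-2 (1.59% in KO7 and 13.4 ± 0.662% in WT6) next in WT6. The leading segment was thus Trbv5 in KO7 and Trbv19 in WT6. Segments of the alpha chain had few counts, 129.7 per library in KO7 and 706 in WT6 on average. Gamma chain segments had 1061 counts per library in KO7 and 5032 in WT6, with Trgv2 ahead in both (55.1 ± 1.104% in KO7 and 68.4 ± 0.398% in WT6). These shares are descriptions without a test, and near-identical segments may share reads.

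Homing and adhesion receptors of T cells fell in 13 of 21 tested members and rose in 4. Ccr9, a receptor of thymus and gut chemokines, fell to 25.2 CPM in KO7, against 122 CPM in WT6 (log2 -2.27). KO7 lay above KO3 (16.8 CPM) and WT0 with PBS (3.65 CPM) for this gene. Ccr4 (log2 -1.22) and Cxcr6 (-1.44) were lower than in WT6 too. The integrin chain Itga4 rose (log2 0.86). Cytokine receptors and their STAT signal fell in 15 of 28 members and rose in 8. Il2rb, the beta chain of the interleukin 2 and 15 receptors, had 18.1, 18.8 and 18.5 CPM in the KO7 libraries and 51.5, 54.9 and 59.4 CPM in the WT6 libraries (log2 -1.58, SE 0.06, edgeR adjusted p = 6.38e-39) and stood apart. Stat4 (log2 -1.81), Il27ra (-1.14) and Il18r1 (-1.05, and -0.69 and not called without KO7 replicate 1) were lower, and Cish, a feedback inhibitor of STAT5 signals, was higher (1.5).

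Regulators of leukemic cells changed in both directions. The transcription factor Mef2c fell to 6.02 CPM in KO7, against 26.6 CPM in WT6 (log2 -2.14). Runx3 (log2 -1.07), Phf6 (-0.63) and Bcl11b (-0.55), all regulators of T lineage cells or recurrent T-ALL genes, fell as well. Tal1 (log2 1.85), Lmo2 (1.70) and Erg (1.23) rose. Tal1 and Lmo2 also act in red cell precursors, whose markers rose in the same libraries, and their part in the result was not tested.

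Protective members of the BCL2 family of apoptosis regulators moved in opposite directions. Of the 17 tested genes of the whole family 6 were higher and 7 lower (35.3% and 41.2%), shares near those of all tested genes. Bcl2 had 10.4, 9.60 and 9.89 CPM in the KO7 libraries and 26.9, 26.3 and 26.3 CPM in the WT6 libraries (log2 -1.41, SE 0.08, edgeR adjusted p = 1.42e-27). Bcl2l1, which encodes BCL-XL, had 231, 231 and 224 CPM in the KO7 libraries and 89.5, 85.7 and 94.0 CPM in the WT6 libraries (log2 1.35, SE 0.03, edgeR adjusted p = 3.98e-53). Both differences were free of overlap and stood apart in KO7. Per kilobase, Bcl2l1 was at 31.2 ± 0.504 CPM in KO7 and 12.2 ± 0.565 CPM in WT6, and Bcl2 at 1.35 ± 0.0521 CPM in KO7 and 3.61 ± 0.0456 CPM in WT6. Mcl1 rose (log2 0.36), Bcl2l2 fell (-1.23), and of the killers Bbc3 rose (0.56) and Bax was slightly lower (-0.14). Bcl2l1 is also a survival gene of red cell precursors, and the part of the erythroid share in its result was not tested. Of 23 p53 target genes 8 were higher and 13 lower, with Gadd45a (log2 1.25) highest and the death receptor Tnfrsf10b (-1.37) lowest.

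Chaperones and disulfide isomerases of the endoplasmic reticulum (ER) were lower for 19 of the 20 members and higher for 0 (median log2 -0.61), and Erp29 was not called. Hsp90b1, the ER form of HSP90, had 426, 410.4 and 428 CPM in the KO7 libraries and 1087, 1090.3 and 1023 CPM in the WT6 libraries (log2 -1.34, SE 0.02, edgeR adjusted p = 1.31e-59). Pdia4 (log2 -1.37), Creld2 (-1.17), Dnajb9 (-1.08), Pdia6 (-0.81) and the main ER chaperone Hspa5 (-0.62) fell with it. A motif of such genes, the ER stress response element (ERSE, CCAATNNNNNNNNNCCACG on either strand), was searched in the 250 bases before each RefSeq gene start (GRCm38.p6). It was found in 37 of 32851 promoter entries (0.113%) and in 7 of the 16 list members with an entry (43.8%), namely Hspa5, Hsp90b1, Calr, Canx, Pdia6, Dnajc3 and Creld2, all lower in KO7, as were all 9 members with an entry but no motif. The stretches of the 3 with the largest falls are printed 5′ to 3′ along the gene, with the motif in capitals; Hsp90b1 (chr10:86705513-86705676 on the minus strand) holds it in both orientations, Creld2 (chr15:88819500-88819559 on the plus strand) in reverse and Pdia6 (chr12:17266471-17266530 on the plus strand) forward.
Hsp90b1: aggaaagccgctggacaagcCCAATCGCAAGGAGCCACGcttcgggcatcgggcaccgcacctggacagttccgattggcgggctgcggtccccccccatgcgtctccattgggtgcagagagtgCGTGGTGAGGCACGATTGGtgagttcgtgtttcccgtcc
Creld2: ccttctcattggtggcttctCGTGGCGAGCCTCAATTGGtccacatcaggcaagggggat
Pdia6: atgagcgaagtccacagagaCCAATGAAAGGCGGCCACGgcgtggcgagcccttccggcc
A match describes the letters and is no evidence that a factor bound there.

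Further ER genes were mixed. Degradation and translocation genes fell in 17 of 24 members and rose in 3 (median log2 -0.25), with Derl3 (-2.28) lowest. Of 12 stress sensors and factors 4 were higher and 5 lower (median log2 0.08). Of these, Xbp1 (log2 -0.90), Ern1 (-0.68) and Atf6 (-0.54) fell, Ddit3 (0.63), Ppp1r15b (0.15) and Atf4 (0.30) rose, Atf4 standing apart in KO7, and Ppp1r15a, the phosphatase subunit that reverses the stress block of translation, had 373, 369 and 366 CPM in the KO7 libraries and 73.1, 67.7 and 68.2 CPM in the WT6 libraries (log2 2.40, SE 0.03, edgeR adjusted p = 5.66e-72), against means of 79.6 CPM in KO3, 346 CPM in WT0 with ERG-245 and 265 CPM in WT0 with PBS. The erythroid share was also high in KO7 and both WT0 groups, and its part in the Ppp1r15a result was not tested. The glutathione-degrading Chac1 fell (log2 -2.97). Plasma cells express the ER genes strongly, and their markers fell in 11 of 12 members in KO7 (median log2 -1.53), at a summed share of 0.430, 0.435 and 0.429% of counts in KO7, against 0.953, 0.918 and 0.940% in WT6. Against WT0 with PBS, where plasma cell markers took 0.148% of counts, the ER chaperone list had a median log2 of 0.21, and against KO3, where they took 0.328%, of -0.20. The part of plasma cells in the ER result was not tested.

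Interferon-stimulated genes rose in 25 of 35 members and fell in 7, with 14 at least 2-fold higher (median log2 0.82). Oasl2, an oligoadenylate synthetase-like antiviral protein, had 18.4, 17.4 and 16.5 CPM in the KO7 libraries and 3.59, 3.74 and 3.81 CPM in the WT6 libraries (log2 2.24, SE 0.10, edgeR adjusted p = 1.15e-33). The exonuclease Isg20 had 255, 259 and 244.9 CPM in the KO7 libraries and 68.0, 65.2 and 68.2 CPM in the WT6 libraries (log2 1.92) and Ifit3b 1.46, 1.65 and 1.19 CPM in the KO7 libraries and 0.333, 0.354 and 0.443 CPM in the WT6 libraries (log2 1.93), and both stood apart in KO7. The groups did not overlap for these 3 genes, and Ifit3b may share reads with its near-identical copy Ifit3. Members that fell included Trim30a (log2 -0.82) and Oas1a (-0.42), and Mx1 was not called (-0.05). Against WT0 with PBS the list's median log2 was -0.04, and against KO3 it was 0.64. The erythroid share averaged 6.37% in KO7, 1.32% in KO3, 1.42% in WT6 and 4.59% in WT0 with PBS, so erythroid markers moved with these genes, and their part in the result was not tested. Interferon-induced GTPases rose in 12 of 16 members and fell in 1 (median log2 0.50), with Iigp1 highest (1.58), while MHC class I presentation genes, many of them also interferon targets, rose in 5 of 17 and fell in 9, with H2-Q7 lowest (-1.32).

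The interferon-stimulated response element core (GAAANNGAAA on either strand) stood before 978 of the 32851 starts (2.98%) and before 11 of the 24 list members with a promoter entry (45.8%), of which 7 were higher, 3 were lower (Oas1a, Bst2 and Trim30a) and Oas1g was not called. Of the 13 members with an entry but no core, 10 were higher and 2 lower. For Isg15 (chr4:156200855-156200916 on the minus strand), Rsad2 (chr12:26456533-26456592 on the minus strand) and Oas3 (chr5:120777695-120777754 on the minus strand), 3 members that hold it and rose, the stretch around the motif reads as follows, with the core in capitals; Isg15 holds 3 overlapping copies and Rsad2 the reverse form.
Isg15: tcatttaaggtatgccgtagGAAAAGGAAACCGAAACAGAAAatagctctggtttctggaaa
Rsad2: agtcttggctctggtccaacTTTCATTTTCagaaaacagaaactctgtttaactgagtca
Oas3: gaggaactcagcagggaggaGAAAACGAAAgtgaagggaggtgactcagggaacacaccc
The corresponding levels were 133, 129 and 126 CPM in the KO7 libraries and 32.0, 34.5 and 32.1 CPM in the WT6 libraries for Isg15, the ubiquitin-like modifier (log2 1.98). For Rsad2, an antiviral nucleotide-making enzyme, they were 319, 332 and 326 CPM in the KO7 libraries and 74.4, 72.0 and 70.4 CPM in the WT6 libraries (log2 2.17), with means of 69.0 CPM in KO3, 535 CPM in WT0 with ERG-245 and 361 CPM in WT0 with PBS. Oas3, which makes the activator of RNase L, had 29.7, 27.1 and 29.9 CPM in the KO7 libraries and 12.8, 13.1 and 12.9 CPM in the WT6 libraries (log2 1.16), and the groups did not overlap for any of these 3 genes.

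**Figure D3:**
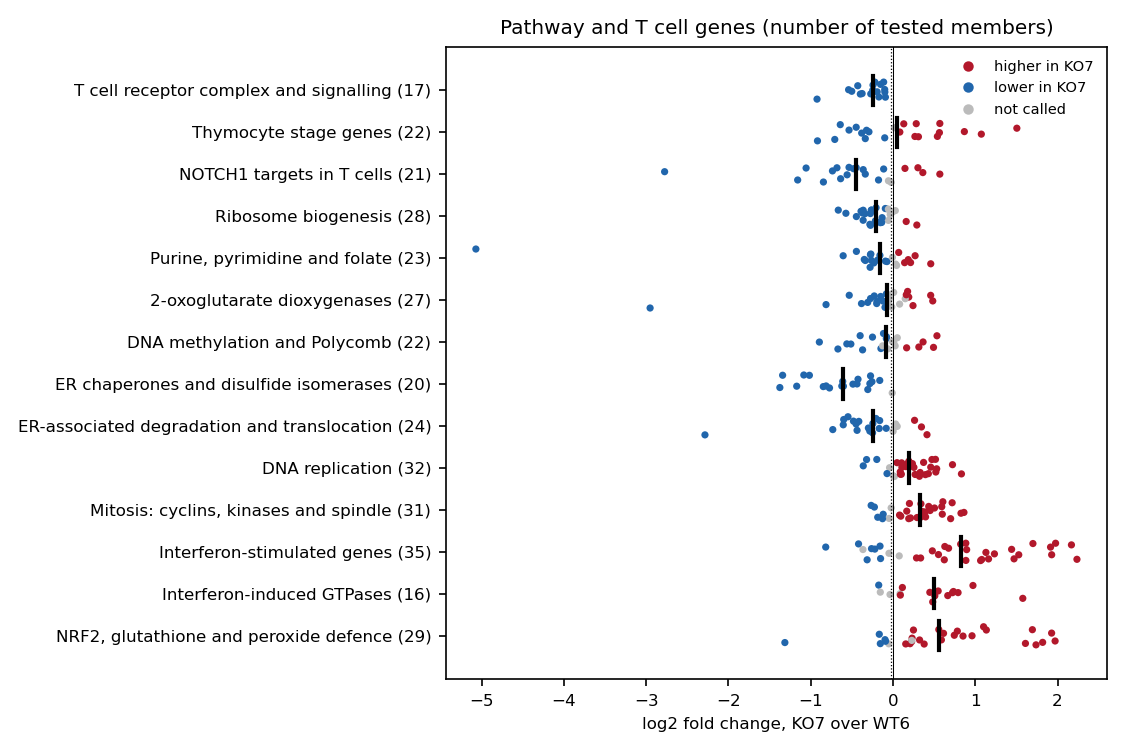
Log2 fold changes of KO7 over WT6 (x) for the tested members of 14 gene lists (y, number of members in brackets); points are genes, red higher and blue lower at an edgeR adjusted p under 0.05, grey not called, black bars are list medians and the dotted line is the median of all tested genes (-0.03). T cell receptor genes and ER chaperones lie left of 0, and most interferon-stimulated and NRF2 genes lie right of it.

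Replication and mitosis genes were mostly higher, and genes that build ribosomes mostly lower. DNA replication genes rose in 25 of 32 members and fell in 4 (median log2 0.20), and of the mitosis genes 24 of 31 were higher and 5 lower (0.33). The origin protein Orc1 (log2 0.72), the phosphatase Cdc25b (0.86) and the ubiquitin enzyme Ube2c (0.72) were among the highest, while Gins2 (-0.36), Pola1 (-0.32) and Bub1b (-0.27) fell. Rrm2, a subunit of ribonucleotide reductase, rose to 615 CPM in KO7, against 346 CPM in WT6 (log2 0.83), with 343 CPM in KO3, 727 CPM in WT0 with ERG-245 and 631 CPM in WT0 with PBS, and the proliferation marker Mki67 to 1528 CPM in KO7, against 861 CPM in WT6 (log2 0.83), with 801 CPM in KO3, 2024 CPM in WT0 with ERG-245 and 2142 CPM in WT0 with PBS. KO7 and both WT0 groups, which were high in Rrm2 and Mki67, also had the high erythroid shares, and their part in the result was not tested. Against WT0 with PBS the list medians were -0.21 for replication and -0.24 for mitosis. Against KO3, whose erythroid share was 1.32%, they were -0.01 for replication and 0.29 for mitosis. Of 22 regulators of G1 10 were higher and 9 lower (median log2 0.09), with E2f2 at 448 ± 10.7 CPM in KO7 and 168 ± 3.12 CPM in WT6 (log2 1.41) and Ccne1 (0.85) higher and the kinases Cdk6 (-0.56) and Cdk4 (-0.46) lower. E2f2 was high in the same groups, with 157 CPM in KO3, 567 CPM in WT0 with ERG-245 and 405 CPM in WT0 with PBS. Ribosome biogenesis genes fell in 20 of 28 members and rose in 2 (median log2 -0.21), and 15 of the lower ones stood apart in KO7. Utp20, a factor of the small ribosomal subunit, fell the most (log2 -0.66), and the nucleolar proteins Npm1 (-0.27) and Ncl (-0.27) fell with it. Of 15 heat shock chaperones 9 were lower and 4 higher. At low levels, Hspb1 rose to 3.06 CPM in KO7, against 0.628 CPM in WT6 (log2 2.28), and Hspa1a to 1.47 CPM in KO7, against 0.484 CPM in WT6 (1.58). Hsph1 fell to 59.6 CPM in KO7, against 80.0 CPM in WT6 (-0.43). Of 20 immediate early genes 5 were higher and 7 lower, shares near or under those of all genes, with Nr4a3 (-1.37), Egr2 and Egr3 (both -0.89) lower and Fosb (0.91) and Dusp1 (0.86) higher.

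Peroxide defence and glutathione genes of the NRF2 group rose in 22 of 29 members and fell in 5 (median log2 0.56). Nqo1, a quinone reductase, had 21.7, 19.9 and 17.7 CPM in the KO7 libraries and 5.09, 4.80 and 5.32 CPM in the WT6 libraries (log2 1.97, SE 0.09, edgeR adjusted p = 3.06e-31). Gclm, the modifier subunit of the first glutathione enzyme, had 169, 169.7 and 176 CPM in the KO7 libraries and 51.9, 53.3 and 48.8 CPM in the WT6 libraries (log2 1.74), again without overlap. The peroxidases Gpx1 (log2 1.93) and Prdx2 (1.61), the mitochondrial Txnrd2 (1.69) and catalase Cat (1.13) rose, and Prdx1 was slightly lower (-0.15). Red cell precursors hold several of these enzymes. Against WT0 with PBS, with an erythroid share of 4.59%, the list's median log2 was 0.23, and the part of erythroid RNA was not tested.

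Central carbon genes moved less. Of 24 glycolysis genes 10 were higher and 11 lower. Among the hexokinases, Hk1 rose to 273 CPM in KO7, against 138 CPM in WT6 (log2 0.99). Hk3 rose too (1.06), and Hk2 fell to 10.0 CPM in KO7, against 17.9 CPM in WT6 (-0.83). Hk1 had 143 CPM in KO3 and 243 CPM in WT0 with PBS, so it was high where the erythroid share was high. The part of erythroid RNA in the Hk1 result was not tested. Of the respiratory chain and ATP synthase genes 22 of 40 were higher and 6 lower (median log2 0.11), with the complex I subunit Ndufa10 highest (0.61) and cytochrome c, Cycs, lowest (-0.48). In the pyruvate dehydrogenase and TCA cycle list 8 of 23 were higher and 7 lower, shares near those of all tested genes. Pyruvate carboxylase Pcx was highest (1.25). Of 21 cholesterol synthesis genes 7 were higher and 9 lower, also near the shares of all tested genes. Cyp51 (-0.64) and Idi1 (-0.61) were the lowest.

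Erythroid genes moved together. All 29 tested markers rose at least 2-fold (median log2 2.20), from Uros (log2 1.44) to Alas2, the first enzyme of heme synthesis, which had 2084, 2134 and 2101 CPM in the KO7 libraries and 335, 325 and 339 CPM in the WT6 libraries (log2 2.66, SE 0.02, edgeR adjusted p = 1.68e-80). The globin Hbb-bs had 25685, 23890.0 and 24282 CPM in the KO7 libraries and 5398, 5227 and 6243 CPM in the WT6 libraries (log2 2.13), with reads that may be split with the near-identical Hbb-bt, and hemoglobin genes alone took 4.90% of counts in KO7 and 1.08% in WT6. Against WT0 with PBS the median of the list was 0.17, and against KO3, whose erythroid share was 1.32%, it was 2.15. Of the largest CPM differences upward, all but Gpx1 and Cd24a were red cell genes, and those 2 are expressed in red cell precursors as well.

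Macrophage genes split by type. All 15 tested markers of red pulp macrophages, which clear old red cells and recycle their iron, rose and stood apart in KO7 (median log2 1.16, and 1.82 against WT0 with PBS). The scavenger receptor Cd163 had 84.3, 91.1 and 95.1 CPM in the KO7 libraries and 15.6, 17.0 and 16.6 CPM in the WT6 libraries (log2 2.46), the secreted Cd5l 333, 329.5 and 334 CPM in the KO7 libraries and 59.8, 60.2 and 60.8 CPM in the WT6 libraries (log2 2.46) and heme oxygenase Hmox1 588, 586 and 583 CPM in the KO7 libraries and 162, 167 and 169.5 CPM in the WT6 libraries (log2 1.82). None of these 3 overlapped between the leukemias. Their common transcription factor Spic rose by log2 1.74, and the complement receptor Vsig4 by 3.41. By contrast, 11 of 15 markers of monocytes and activated macrophages fell and 4 rose (median log2 -1.62). The resistin-like Retnla had 4.27, 3.46 and 3.41 CPM in the KO7 libraries and 111, 108 and 112 CPM in the WT6 libraries (log2 -4.88, SE 0.07, edgeR adjusted p = 2.41e-66), lysozyme Lyz2 53.9, 51.6 and 55.2 CPM in the KO7 libraries and 383, 437 and 427 CPM in the WT6 libraries (log2 -2.95), and arginase Arg1 (log2 -2.96) and the chitinase-like Chil3 (-2.01) fell as well. Among the 4 that rose, Cd14, a co-receptor for bacterial lipopolysaccharide, stood at 25.7, 26.8 and 24.2 CPM in the KO7 libraries and 4.49, 5.59 and 5.76 CPM in the WT6 libraries (log2 2.29), with the mannose receptor Mrc1 at log2 1.75.

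B cell markers were lower for 13 of the 15 members and higher for 0 (median log2 -2.17), at a summed share of 0.00836, 0.00866 and 0.00857% of counts in KO7, against 0.0337, 0.0334 and 0.0336% in WT6. Ms4a1, which encodes CD20, had 2.36, 2.39 and 2.84 CPM in the KO7 libraries and 21.9, 19.6 and 19.1 CPM in the WT6 libraries (log2 -3.0, SE 0.11, edgeR adjusted p = 1.93e-38), and the B cell factor Pax5 (log2 -2.54) fell as well. Plasma cell genes fell with the exception of Ighm, the IgM heavy chain, which rose (log2 0.81). The joining chain Jchain had 285, 287 and 285 CPM in the KO7 libraries and 1143, 1139 and 1142 CPM in the WT6 libraries (log2 -2.0). Within the 8 immunoglobulin heavy chain constant genes, Ighm took 56.0 ± 0.902% of their counts in KO7 and 12.0 ± 0.304% in WT6, whereas Ighe, the IgE chain, took 7.77 ± 0.154% in KO7 and 39.99 ± 0.337% in WT6. Ighg1 took 18.5 ± 0.380% in KO7 and 42.2 ± 0.515% in WT6, and Igha 11.9 ± 0.214% in KO7 and 1.21 ± 0.0176% in WT6. In KO3 Ighm took 21.6% and Ighe 35.2%, and in WT0 with PBS Ighm took 51.3% and Ighe 8.99%. These shares were not tested.

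**Figure D4:**
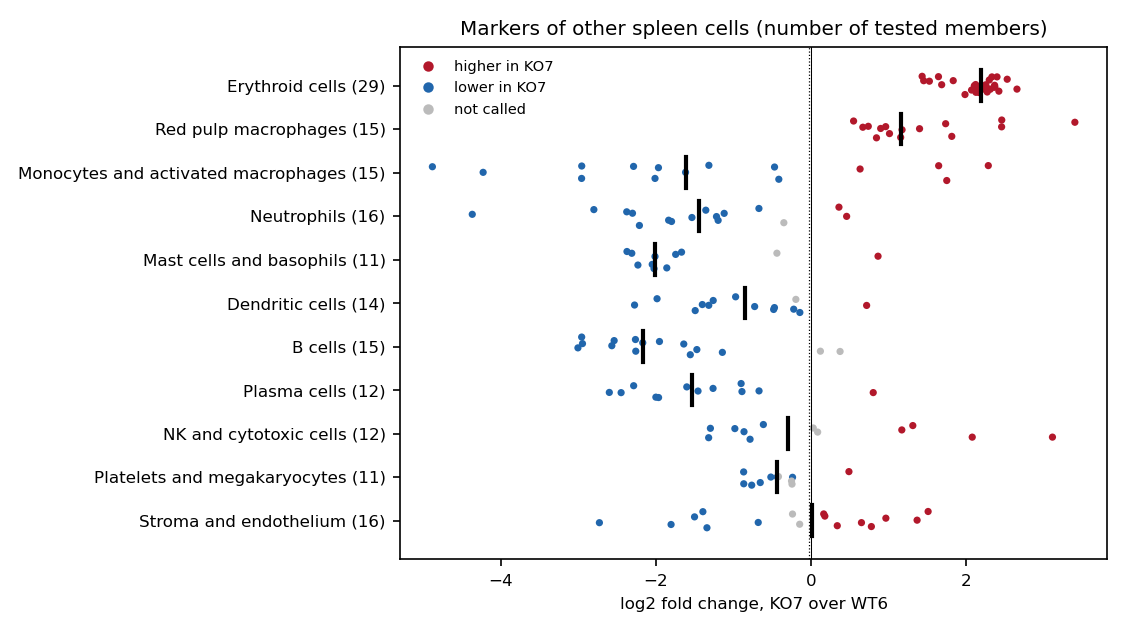
Log2 fold changes of KO7 over WT6 (x) for tested markers of other spleen cells (y, number of members in brackets), drawn as in the plot of pathway lists. All 29 erythroid and all 15 red pulp macrophage markers lie right of 0, and most B cell, plasma cell, neutrophil and mast cell markers lie left of it.

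Neutrophil, mast cell, dendritic cell and platelet markers were lower in KO7 for most members, while cytotoxic and stromal markers were split. Neutrophil genes fell in 13 of 16 (median log2 -1.44) and rose in 2, and the mast cell and basophil genes fell in 9 of 11 and rose in 1, the receptor kinase Kit (0.87). Dendritic cell genes fell in 12 of 14, including the class II genes H2-Aa (log2 -1.49) and H2-Ab1 (-1.40) and their regulator Ciita (-1.98). Of 12 cytotoxic genes 4 were higher and 6 lower, with granzymes Gzmb at 10.2, 6.87 and 8.64 CPM in the KO7 libraries and 1.13, 0.984 and 0.798 CPM in the WT6 libraries (log2 3.12) and Gzmk (2.08) higher and Gzma (-1.32) lower. Of 16 stroma and endothelium markers 8 were higher and 6 lower, with the chemokine Cxcl12 (1.51) and the sinus receptor Stab2 (1.37) higher and the collagens Col1a1 (-1.39) and Col3a1 (-1.80) lower. Platelet markers fell in 7 of 11 and rose in 1.

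**Figure D5:**
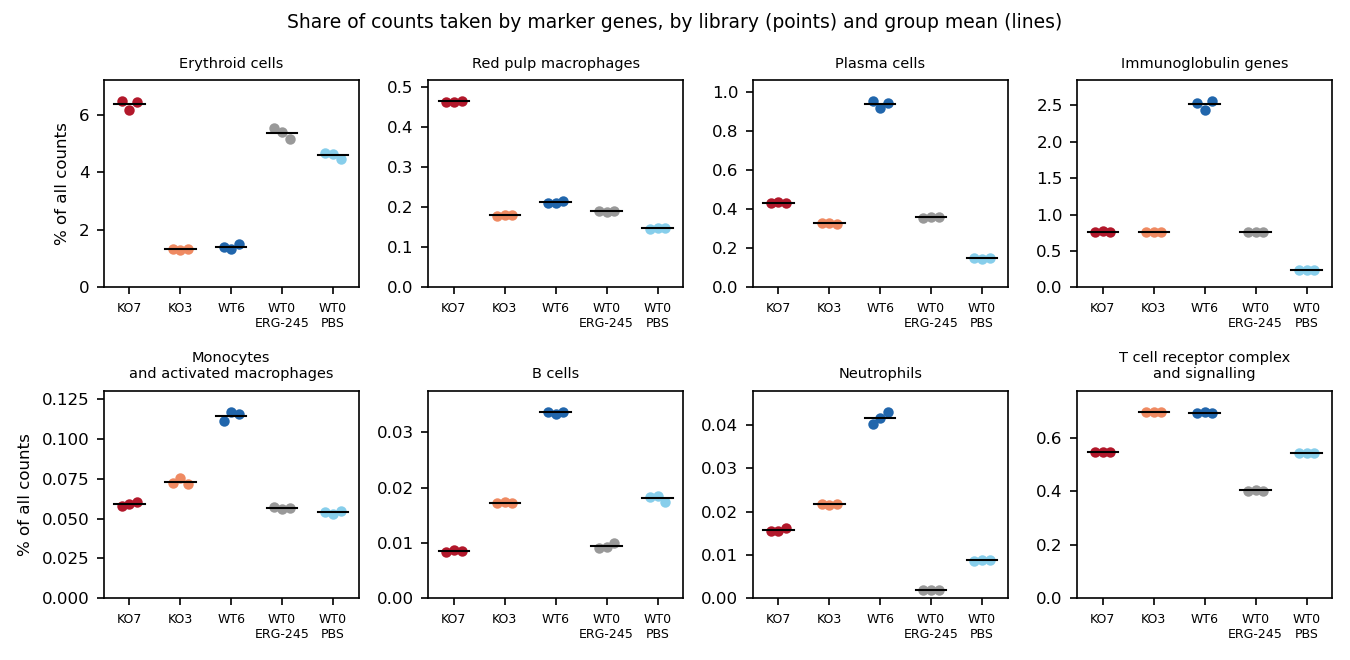
Share of all counts in percent (y, from 0) taken by the summed genes of 8 cell classes in each library (points) and as group means (lines), for KO7, KO3, WT6, WT0 with ERG-245 and WT0 with PBS. KO7 has the highest erythroid and red pulp macrophage shares, and WT6 the highest plasma cell, immunoglobulin, monocyte, B cell and neutrophil shares.

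Several of the largest single changes were in genes that do not stand in a list above. Among annotated genes averaging 5 CPM or more over both groups, Hormad2, a meiotic chromosome axis protein, rose by the most, at 12.8, 12.2 and 12.7 CPM in the KO7 libraries from 254, 215 and 223 counts, against 3, 2 and 6 counts in the WT6 libraries (log2 6.42). The tight junction gene Cldn4 had 36.0, 35.2 and 36.3 CPM in the KO7 libraries and 2.69, 2.83 and 2.48 CPM in the WT6 libraries (log2 3.74), a level KO3 shared (37.6 CPM). Its neighbour Cldn13 rose by log2 2.38. The inhibitory sialic acid receptor Siglece had 62.0, 66.6 and 63.1 CPM in the KO7 libraries and 9.05, 8.22 and 8.15 CPM in the WT6 libraries (log2 2.91), and Fpr1, a receptor of bacterial formyl peptides, 15.5, 16.8 and 16.3 CPM in the KO7 libraries and 2.59, 2.91 and 2.30 CPM in the WT6 libraries (log2 2.63); in the other groups Fpr1 averaged 2.61 CPM in KO3, 2.59 CPM in WT0 with ERG-245 and 2.48 CPM in WT0 with PBS. Of the 20 largest rises so ranked 16 stood apart in KO7, and of the 20 largest falls so ranked 6 did.

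Downward, the serotonin receptor Htr4 had 2, 2 and 1 counts in the KO7 libraries and 16.4, 16.7 and 17.2 CPM in the WT6 libraries, with 0.841 CPM in KO3, 0.103 CPM in WT0 with ERG-245 and 0.292 CPM in WT0 with PBS. WT6 was also the group with the high value for Srgap3, a GTPase regulator of cell guidance, with 2.30 ± 0.598 CPM in KO7 and 61.1 ± 2.59 CPM in WT6 (log2 -4.71) and 1.84 CPM in KO3, 1.24 CPM in WT0 with ERG-245 and 1.56 CPM in WT0 with PBS, and for the calcium-binding Necab1 (14.1 ± 1.01 CPM in KO7 and 150.2 ± 5.62 CPM in WT6, log2 -3.41, and 19.2 CPM in KO3, 4.61 CPM in WT0 with ERG-245 and 7.49 CPM in WT0 with PBS). Padi4, a histone-citrullinating enzyme of neutrophils, fell too (log2 -4.37). Genes lower in KO7 than in all other groups included the synaptic scaffold Dlg4, with 3.62, 3.92 and 3.75 CPM in the KO7 libraries and 17.2, 18.4 and 16.0 CPM in the WT6 libraries (log2 -2.19, SE 0.10, edgeR adjusted p = 1.91e-32) and 22.7 CPM in KO3, 15.8 CPM in WT0 with ERG-245 and 21.0 CPM in WT0 with PBS. The alkaline phosphatase Alpl (log2 -2.18) and the motor adaptor Hook1 (-1.51) stood apart in the same way. In the opposite pattern Wwc1, a scaffold of the Hippo pathway named after its values were seen, had 5.03, 5.11 and 5.57 CPM in the KO7 libraries and 1, 1 and 0 counts in the WT6 libraries.

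Some of the genes with the largest folds lie in blocks that moved together. Others had no tested neighbour within 100 kb that changed at least 2-fold the same way, such as Slfn14 (0 of 8) and Alas2 (0 of 6). Over all tested genes 9.29% were at least 2-fold higher and 8.17% at least 2-fold lower. Ccl8, a monocyte-attracting chemokine, had 16.4, 15.8 and 15.3 CPM in the KO7 libraries and 130.2, 123 and 138 CPM in the WT6 libraries (log2 -3.04). Of its 5 tested neighbours within 100 kb, 4 chemokine genes fell at least 2-fold as well: Ccl11 (log2 -4.04), Ccl12 (-2.79), Ccl7 (-2.63) and Ccl2 (-1.1). Ifi208, an interferon-inducible DNA-sensor relative, rose by log2 2.93 with 3 of its 4 neighbours, Ifi207 (1.16), Ifi209 (1.02) and Ifi213 (1.14). Cyp39a1, an oxysterol hydroxylase, rose by 3.53 with all 3 of its neighbours, Slc25a27 (1.80), Pla2g7 (1.44) and Rcan2 (1.13). Over whole autosomes and the X chromosome, leaving out receptor genes, the median log2 fold change per chromosome lay between -0.08 on chromosome 16 and 0.05 on chromosome 19. The 6 tested genes of the Y chromosome had a median log2 of -0.24 in KO7 against WT6. Against KO3 it was -0.26 and against WT0 with PBS 12.6, so comparisons with WT0 also hold a difference in Y genes. Its part in those comparisons was not tested.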

How the data were processed

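RNA-seq libraries of spleen leukemia cells were described by raw fragment counts per gene. Per the file headers, the authors used featureCounts 2.0.1 to count paired fragments on RefSeq exons (build GRCm38.p6), with a minimum overlap of 25 bases and strand setting 2; the submitters' processing notes name Trim Galore, STAR, Subread and DESeq2 without settings. The deposited table also gives gene lengths in bases (its other unit), used only for levels per kilobase. Neb, Mycbp2 and Huwe1 had broken lines and were left out. A symbol was found for 39743 of 39827 gene IDs.

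Genes kept by edgeR's filterByExpr (15948) were fitted in R 4.3.3 with edgeR 4.0.16 (TMM scaling, quasi-likelihood F test, all 15 libraries in 5 groups, 10 residual degrees of freedom, Benjamini-Hochberg adjustment over all tested genes). Levels are CPM on TMM-scaled totals. The fit was tested on simulated data. Genes within 2 Mb of Bcat1, the genes with the largest folds (with at least 5 CPM and no overlap), the largest CPM differences, those furthest apart from all groups and up to 4 members per list by smallest p were named by rule, and further list members were named after their values were seen. The 46 gene lists (960 different genes, 28 in more than 1 list) and the members were chosen with earlier results of these data known. No set test was run. Alternatives were DESeq2 1.42.0, other scalings, no low-count filter, the 6 libraries alone, a replicate block and leaving out each library. Promoter sequences and gene starts come from RefSeq (GRCm38.p6).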

Additional observations from a re-analysis of the deposited data

How the results depend on the processing

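Counts of genes called in KO7 against WT6 stayed within 1.5 times of those reported under every alternative run. Genes higher numbered 5239 with DESeq2's size factors in edgeR, 4424 with library totals alone, 5260 with no low-count filter, 4927 with DESeq2 and 5300 in the 6 libraries alone, against 5143 as reported, and genes lower numbered 5719, 6790, 5920, 5369 and 5387 in the same order, against 5849. Leaving out each library in turn gave 4832 to 5083 genes higher and 5580 to 5706 lower. With library totals alone the median log2 fold change of all genes was -0.09, against -0.03 as reported, and medians of 10 of the 46 lists changed sign under some alternative, all within 0.2 of 0 on the log2 scale. Of 4978 values recomputed for 383 named genes, 40 lost the call and 6 gained it with the sign kept. A further 12 changed sign, and the cause was not tested. Those that changed sign all belonged to genes not called as reported. Erp29 was at log2 0.00063 with DESeq2's size factors, 0.00078 with DESeq2 and 0.016 in the 6 libraries alone, and -0.030 to 0.025 with single libraries left out. Hes1 was at 0.0033 in the 6 libraries alone and -0.072 to 0.016 with libraries left out. Fgfr1op2 (-0.040) and Rag1 (-0.047) changed sign with library totals alone, where Rag1 was also called lower (edgeR adjusted p = 0.0482). Leaving out single libraries gave -0.17 to 0.16 for Mx1, -0.64 to 0.064 for Oas1g and -0.020 to 0.44 for the gene model LOC115490444.

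Same-numbered KO7 and WT6 libraries did not deviate together (r of -0.0094, -0.03 and -0.0833), so the numbers name libraries only, and with the replicate number as a block 5111 genes were higher and 5809 lower. Genes with few counts, such as Htr4 and Hormad2, rest on a handful of reads per library in 1 of the leukemias, which limits the precision of their fold changes.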
